A study of Mus musculus with 8 samples.

Results

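The large Maf factor *Maf* (c-Maf), the small Maf factors *Maff*, *Mafg*, and *Mafk*, their cap'n'collar partners *Nfe2l1* (Nrf1) and *Nfe2l2* (Nrf2), the related repressors *Bach1* and *Bach2*, and the Nrf2 regulator *Keap1* were followed in whole kidneys after deletion of *c-Maf*. These 9 genes were chosen by name from 55367 genes listed. They are the factors that share Maf recognition sequences in DNA and the regulator of one of them. The rule used no measured value, but earlier results of these data were known when the genes were chosen. Whole-kidney RNA-Seq covered 4 c-MafΔTAM mice, labelled Maf conditional KO, and 4 c-Maf fl/fl controls, all C57BL/6J and 8 weeks old. Both groups carried floxed *c-Maf* alleles and received tamoxifen (TAM). The c-MafΔTAM mice also carried CAG-Cre-ER(TM), a TAM-activated Cre recombinase under a promoter that is active in most cells, and the controls had no Cre, so that Cre activity and loss of *c-Maf* cannot be told apart. The sexes are not given in the labels, and where the loxP sites lie is not given in the sources used here.

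Maf proteins are basic leucine zipper factors that bind DNA as dimers at Maf recognition elements (MAREs). Large Maf proteins carry an activation domain and can act as homodimers. Small Maf proteins lack one, so that their dimers with Nrf1 or Nrf2 activate, while their dimers with Bach1 or Bach2 repress. Nrf2 drives antioxidant and detoxification genes from antioxidant response elements (AREs), whose core overlaps the MARE, and Keap1 presents Nrf2 to a Cul3 ubiquitin ligase for degradation. Nrf1 is held in the endoplasmic reticulum membrane and is known for raising proteasome genes when proteasome activity is short. In the kidney, c-Maf is known in the proximal tubule, the segment that takes up glucose and amino acids.

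The 3 sequences below are shown because they hold letters of the elements that these factors recognize in front of *Mafg*, the gene of the set that changed besides *Maf*, of *Mafk*, a small Maf gene that was not called, and of *Nfe2l2*, whose protein reads the ARE. Each gives the 250 bases before the RefSeq transcription start in GRCm38.p6, 5′ to 3′ along the strand of the gene, and capitals mark matches to the ARE core TGACNNNGC or to the MARE half-site TGCTGA on either strand.

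Mafg (chr11:120633548-120633797, minus strand): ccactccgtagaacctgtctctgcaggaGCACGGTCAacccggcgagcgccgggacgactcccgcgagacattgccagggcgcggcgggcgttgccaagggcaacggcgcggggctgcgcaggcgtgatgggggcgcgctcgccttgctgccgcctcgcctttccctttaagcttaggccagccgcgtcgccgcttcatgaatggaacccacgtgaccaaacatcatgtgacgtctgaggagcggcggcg
Mafk (chr5:139791286-139791535, plus strand): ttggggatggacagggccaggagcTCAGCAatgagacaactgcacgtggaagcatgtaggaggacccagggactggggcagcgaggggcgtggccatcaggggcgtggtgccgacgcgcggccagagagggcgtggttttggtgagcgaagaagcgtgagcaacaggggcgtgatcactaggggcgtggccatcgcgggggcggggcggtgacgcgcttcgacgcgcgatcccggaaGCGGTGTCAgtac
Nfe2l2 (chr2:75704664-75704913, minus strand): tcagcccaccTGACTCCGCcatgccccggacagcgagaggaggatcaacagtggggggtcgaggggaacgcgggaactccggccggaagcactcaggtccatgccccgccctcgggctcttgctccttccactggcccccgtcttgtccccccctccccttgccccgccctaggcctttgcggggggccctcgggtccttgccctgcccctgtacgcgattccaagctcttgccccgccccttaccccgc

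The *Mafg* sequence held 1 ARE core on the opposite strand, from -222 to -214 relative to the start. The *Mafk* sequence held the MARE half-site from -226 to -221 and an ARE core from -13 to -5, both on the opposite strand. The *Nfe2l2* sequence held an ARE core from -240 to -232. Of 32851 mouse promoter windows of 300 bases (250 before and 50 after the start), 12.4% held the ARE core and 19.5% held the half-site, the full TRE-type MARE, in which half-sites overlap a TRE core from either side, stood in 1 window, and the CRE-type MARE stood in 0. RefSeq windows were matched for 8 of the 9 genes, 14 windows in all, and *Maf* was not matched. One *Maff* window held an ARE core and another held the CRE core TGACGTCA (1.79% of all windows), which shares letters with the TRE core TGANTCA (7.81% of all windows) but was searched separately. The half-site was also present in 3 overlapping windows of *Nfe2l1* and in the window of *Bach1*, while the windows of *Bach2* and *Keap1* held none of these letters. A match of letters is a description and not a binding site.

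Libraries held 16649129 to 22990257 counts per mouse, and mitochondrial genes took 17.1% to 32.3% of them, most in c-MafΔTAM mouse 1. *Xist* stood at 2, 6, and 22 counts in c-MafΔTAM mouse 1 and c-Maf fl/fl mice 3 and 4, and at 17618 or more in the other 5 mice, so the genotypes held unequal numbers of mice with high *Xist* (3 of 4 against 2 of 4). The extraction text in the labels names liver although the tissue field says whole kidney. The kidney markers *Slc34a1* and *Umod* stood at 1481 CPM or more in every mouse. Of 9 hepatocyte markers, 7 were tested and *Ttr* was called lower (0.204 to 3.03 CPM in c-MafΔTAM against 31.5 to 67.8 CPM in controls, adjusted *P* = 0.0152). Their summed level was 690.0 to 1863 CPM against 721.0 to 1403 CPM, most of it from *Apob* (434.5 to 709.7 CPM over all mice) and *Cyp2e1* (47.2 to 1398 CPM), while *Alb* stood between 0.661 and 8.85 CPM and *Tat* held 2 counts in all. Levels are CPM, counts scaled to TMM-normalized library sizes, fold changes are c-MafΔTAM relative to c-Maf fl/fl on the log2 scale, and a gene is called when the adjusted *P* of edgeR's quasi-likelihood test over 20149 genes is under 0.05. Across all tested genes 2.16% were called (0.586% higher and 1.58% lower), 9.79% had values that did not overlap between the genotypes, and the median log2 fold change was 0.0027.

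*Maf* and *Mafg* fell in c-MafΔTAM kidneys, and the other 7 genes were not called. All 9 genes passed the filter on low counts, and 2 of 9 were called lower and 0 higher with edgeR's quasi-likelihood test. Without adjustment, *P* was under 0.05 for 4 of the 9 (*Maf*, *Mafg*, *Bach2*, and *Keap1*), all 4 with lower levels in c-MafΔTAM mice, against 14% of all tested genes in either direction. The values of the genotypes did not overlap for 3 of the 9 (*Maf*, *Mafg*, and *Keap1*). *Maf* was the targeted gene, so that its decrease checks the labels.

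**Figure D1:**
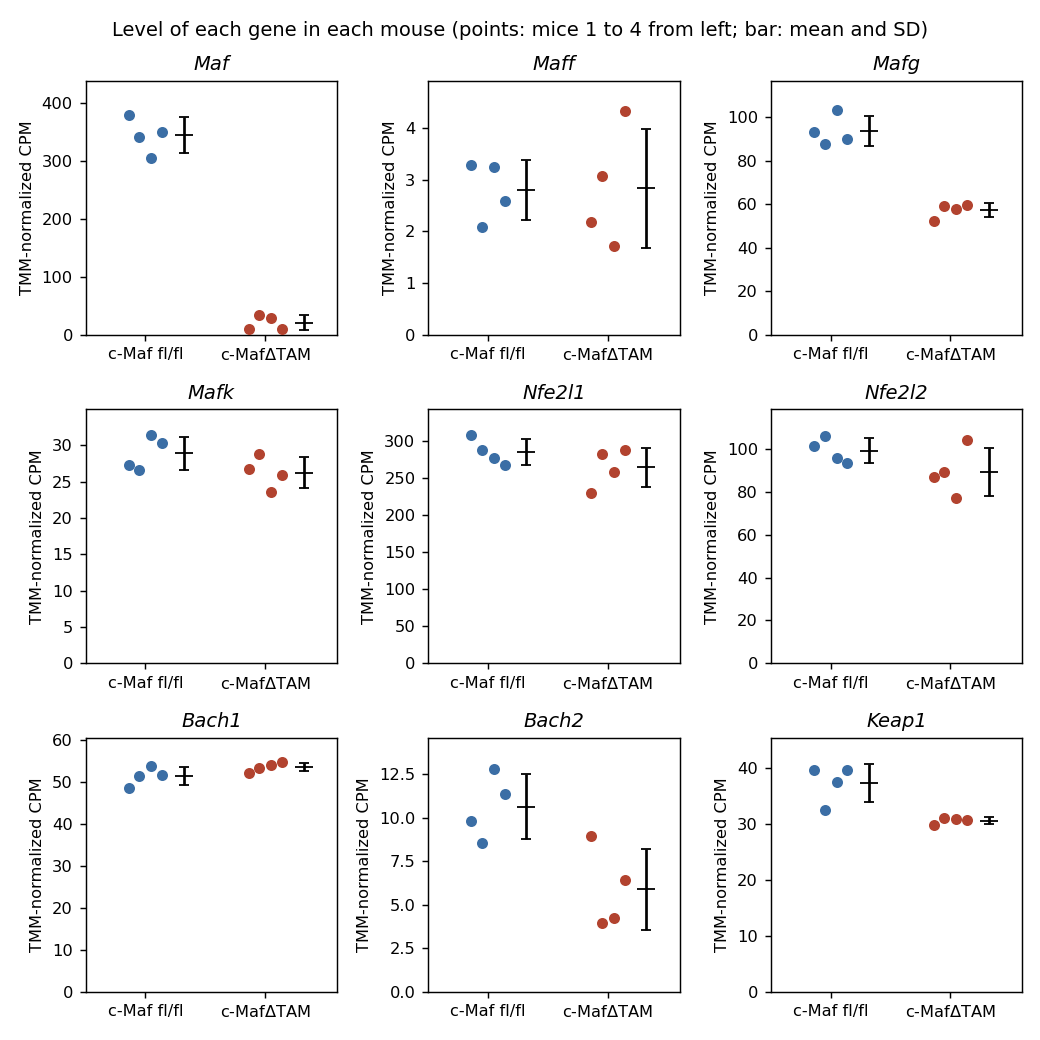
Level of each of the 9 genes in TMM-normalized CPM (vertical axes from 0, one scale per gene) in 4 c-Maf fl/fl mice (blue) and 4 c-MafΔTAM mice (red); points are mice 1 to 4 from left to right, and bars give the mean and SD. The groups stand apart for *Maf*, *Mafg*, and *Keap1* and overlap for the other 6 genes.

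*Maf* (GRCm38 chr8:115682942-115707794, minus strand) encodes c-Maf. It stood at 379.9, 342.2, 305.4, and 351.1 CPM in control mice 1 to 4. c-MafΔTAM mice 1 to 4 had 9.06, 34.5, 29.6, and 10.1 CPM. Every c-MafΔTAM mouse was below every control, and among the c-MafΔTAM mice, mice 1 and 4 were lower than mice 2 and 3. Mean *Maf* was 20.8 ± 13.1 CPM in c-MafΔTAM and 344.7 ± 30.8 CPM in controls (mean ± SD, n = 4 each), so that 6.04% of the control level was left. The log2 fold change was -4.05 (SE 0.512; 95% CI, -5.27 to -2.83; adjusted *P* = 0.0115). The call was kept when any single mouse was left out, with fold changes from -4.41 to -3.80. It was not kept among the 5 mice with high *Xist*, where 3 c-MafΔTAM mice met 2 controls (-3.87, adjusted *P* = 0.108, with 24.7 against 361.1 CPM). Nor was it kept with the replicate number as a block (-4.28, adjusted *P* = 0.0516). *Maf* shared 5.34% of its exonic bases with *Gm15655*, which had 0 counts, and reads there were left out of the counts. The 2 c-MafΔTAM mice with more *Maf* kept 671 and 533 counts, and the others 178 and 187, so no mouse was without *Maf* reads. In a whole kidney, fewer cells of a type and less RNA per cell cannot be told apart.

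Among the small Maf genes, whose products pair with each other and with CNC and Bach factors, only *Mafg* was called. *Mafg* (chr11:120625117-120633600, minus strand) stood at 93.3, 87.8, 103.6, and 89.9 CPM in control mice 1 to 4. It stood at 52.5, 59.4, 58.0, and 59.8 CPM in c-MafΔTAM mice 1 to 4. The groups did not overlap, and c-MafΔTAM mouse 1 was the lowest of the 8. Mean *Mafg* was 57.4 ± 3.39 CPM against 93.7 ± 7.02 CPM (SD, 4 mice each), or 61.3% of the control level. The log2 fold change was -0.71 (SE 0.0832; 95% CI, -0.89 to -0.52; adjusted *P* = 0.000705 by edgeR's quasi-likelihood test), and the exact 2-sided permutation test over 70 assignments gave *P* = 0.0286, the smallest it can give. *Mafg* ranked 67 of 20149 genes by *P*, and *Maf* ranked 200. Among c-MafΔTAM mice the CV was 63.0% for *Maf* and 5.91% for *Mafg*. The call was kept without any single mouse (-0.74 to -0.65) and under each of the 11 other settings (-0.71 to -0.62, adjusted *P* up to 0.0284). With high *Xist*, *Mafg* averaged 59.1 against 90.6 CPM, and with low *Xist* the single c-MafΔTAM mouse had 52.5 CPM against a mean of 96.8 CPM in 2 controls. *Mafg* shared 2.21% of its exonic bases with the neighboring gene *Sirt7*, which was not called (-0.17, adjusted *P* = 0.583).

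The other small Maf genes were not called. *Mafk* (chr5:139791513-139802653, plus strand) stood at 27.3, 26.6, 31.4, and 30.3 CPM in controls and at 26.8, 28.8, 23.5, and 25.9 CPM in c-MafΔTAM mice. The groups overlapped, and the log2 fold change was -0.14 (95% CI, -0.35 to 0.07; adjusted *P* = 0.572). *Maff* (chr15:79346621-79359076, plus strand), a small Maf gene known to be induced by stress, stood at 3.29, 2.08, 3.25, and 2.58 CPM in controls and at 2.19, 3.08, 1.72, and 4.33 CPM in c-MafΔTAM mice. c-MafΔTAM mice held both the lowest and the highest *Maff* value. The interval of the *Maff* fold change was wide (0.02; 95% CI, -0.62 to 0.65; adjusted *P* = 0.987), and its sign changed with the mouse left out (-0.26 to 0.19).

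Levels can be compared between genes per kilobase of exon. In c-Maf fl/fl kidneys the order of mean levels was *Nfe2l1* (52.3 CPM per kb), *Maf* (41.8), *Nfe2l2* (26.2), *Mafg* (16.7), *Bach1* (8.32), *Keap1* (7.94), *Mafk* (7.41), *Maff* (1.08), and *Bach2* (1.07). The control values of *Keap1* (6.91 to 8.45 CPM per kb) overlapped those of *Bach1* and *Mafk*, *Bach1* was above *Mafk* in every control mouse, and *Maff* and *Bach2* did not differ beyond their spread. In c-MafΔTAM kidneys *Maf* stood at 2.52 CPM per kb, below *Nfe2l1* (48.6), *Nfe2l2* (23.6), *Mafg* (10.2), *Bach1* (8.68), *Mafk* (6.72), and *Keap1* (6.51), and, by its mean, above *Maff* (1.09) and *Bach2* (0.591). The order of *Maf* and *Maff* did not hold in every mouse, since c-MafΔTAM mouse 4 had 1.23 CPM per kb of *Maf* and 1.67 of *Maff*, and the SD of *Maf* was 1.59. The *Maf* level was 1.34 to 1.85 times the summed small Maf level in controls. In c-MafΔTAM mice it was 0.0645, 0.219, 0.211, and 0.0648 times that sum. The summed small Maf level itself was 23.3 to 27.8 CPM per kb in controls and 17.0 to 19.1 in c-MafΔTAM mice, without overlap. *Mafg* made up 64.6% to 67.2% of the small Maf sum in controls and 54.8% to 60.7% in c-MafΔTAM mice. These ratios contain the 2 called genes and carry no test of their own.

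**Figure D2:**
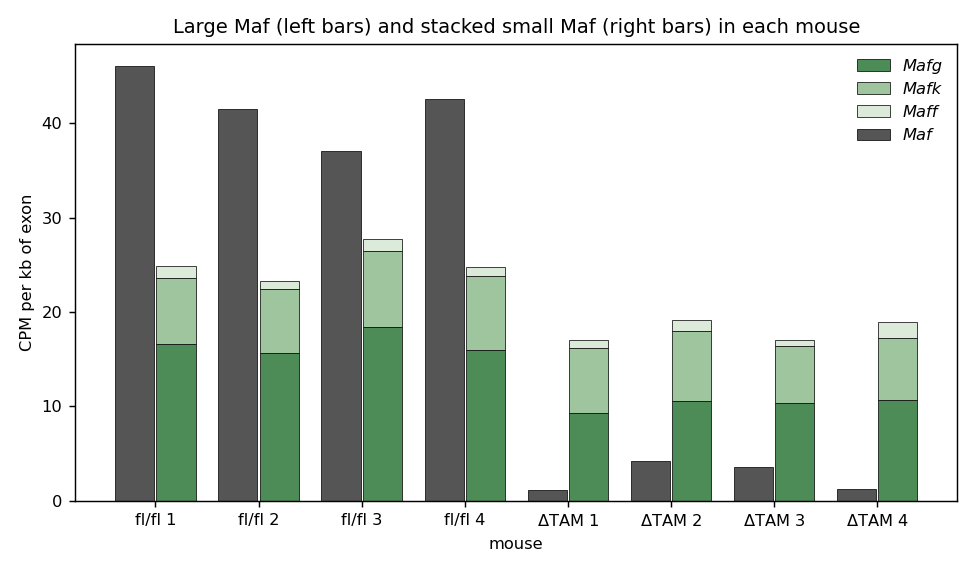
*Maf* (dark bars) and the small Maf genes *Mafg*, *Mafk*, and *Maff* (stacked green bars) in each mouse, in CPM per kb of exon (vertical axis, from 0). The dark bar is the taller in every c-Maf fl/fl mouse and the shorter in every c-MafΔTAM mouse.

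The genes for the activating partners were not called. *Nfe2l1* (chr11:96817414-96829968, minus strand), the gene for Nrf1, stood at 307.4, 288.0, 276.8, and 267.1 CPM in controls and at 229.6, 282.2, 258.1, and 287.9 CPM in c-MafΔTAM mice. The values overlapped, with c-MafΔTAM mouse 1 lowest (log2 fold change -0.11, adjusted *P* = 0.682). *Nfe2l2* (chr2:75675513-75704641, minus strand), the gene for Nrf2, stood at 101.6, 106.4, 96.1, and 93.5 CPM in controls and at 87.1, 89.6, 77.1, and 104.2 CPM in c-MafΔTAM mice. All c-MafΔTAM values but that of mouse 4 lay below every control (-0.15, adjusted *P* = 0.540).

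The repressor genes were not called either. *Bach1* (chr16:87698945-87733346, plus strand), whose product leaves DNA when it binds heme, stood at 48.6, 51.6, 53.8, and 51.6 CPM in controls and at 52.3, 53.4, 54.1, and 54.7 CPM in c-MafΔTAM mice. All 8 values lay close together (log2 fold change 0.06; 95% CI, -0.09 to 0.22; adjusted *P* = 0.768). *Bach2* (chr4:32238804-32586108, plus strand), best known in B and T cells, stood at 9.81, 8.53, 12.8, and 11.4 CPM in controls and at 8.96, 3.95, 4.21, and 6.39 CPM in c-MafΔTAM mice. c-MafΔTAM mouse 1 reached into the control range and the other c-MafΔTAM mice lay below it. *Bach2* had a log2 fold change of -0.85 (SE 0.250; 95% CI, -1.40 to -0.30; adjusted *P* = 0.129). It was called without c-MafΔTAM mouse 1 (adjusted *P* = 0.0172), the mouse with low *Xist*, and among the 5 mice with high *Xist* (-0.92, adjusted *P* = 0.0310). Reads of *Bach2* and of *Bach2os*, which covers 5.40% of its exonic bases, are not counted where they overlap. Of 10 lymphocyte markers, 5 passed the filter and none was called. The summed level of the list was 18.3 to 24.7 CPM in c-MafΔTAM mice and 15.7 to 19.6 CPM in controls, most of it from the pan-leukocyte gene *Ptprc* (14.1 to 18.8 against 12.4 to 15.5 CPM). Fold changes were positive for 4 of the 5 tested markers, with a median of 0.35, and negative for the B cell marker *Cd79b* (0.595 CPM in c-MafΔTAM mice and 1.02 CPM in controls, -0.78, adjusted *P* = 0.467). The B cell markers *Cd79a* (0.259 against 0.196 CPM) and *Ms4a1* (0.0664 against 0.0646 CPM) were too low to be tested.

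*Keap1* (chr9:21229730-21239361, minus strand) stood at 39.6, 32.4, 37.5, and 39.6 CPM in controls and at 29.7, 31.1, 30.8, and 30.7 CPM in c-MafΔTAM mice. All c-MafΔTAM values were below all control values, by little for control mouse 2. The log2 fold change was -0.29 (SE 0.0886; 95% CI, -0.48 to -0.09). The exact permutation test gave *P* = 0.0286, the smallest it can give. This value only restates the lack of overlap, which 9.79% of all tested genes shared. *Keap1* missed the threshold over all genes (adjusted *P* = 0.150) and was called under 0 of the 11 other settings and in 0 of the 8 fits that left out a mouse. *Keap1* shared 10.9% of its exonic bases with *Gm16754*, which was not called (-0.03, adjusted *P* = 0.984).

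**Figure D3:**
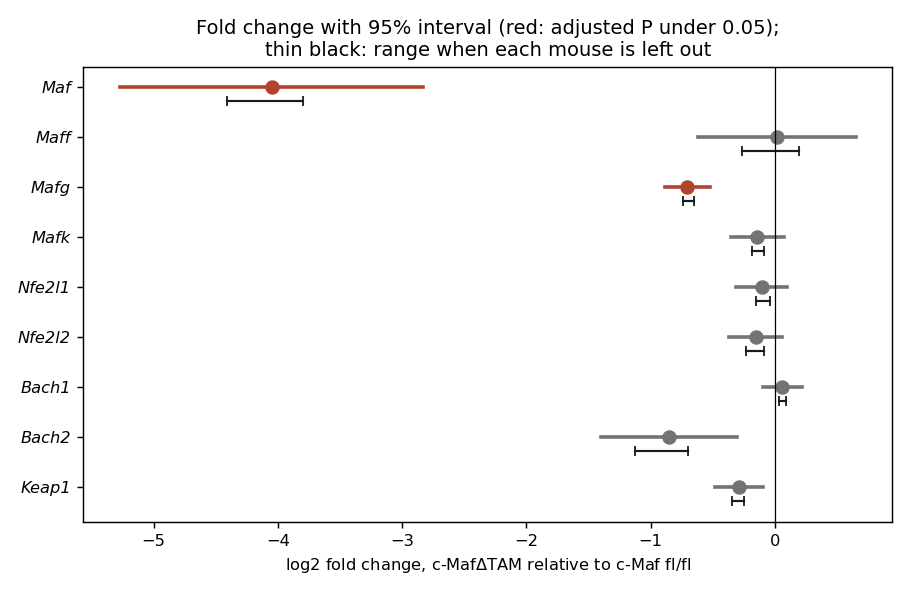
Log2 fold change (horizontal axis, c-MafΔTAM relative to c-Maf fl/fl, n = 4 each) of the 9 genes with the 95% interval (colored lines, red where the adjusted *P* is under 0.05) and the range when each mouse is left out in turn (thin black lines). The intervals of *Maf*, *Mafg*, *Bach2*, and *Keap1* lie below 0, and those of the other 5 genes include 0.

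The genes with profiles nearest to *Maf* and *Mafg* were ranked by the root mean square difference of log2 levels over the 8 mice, among 17483 genes with a mean of at least 1 CPM, each relative to its control mean. This ranking is a description. Nearest to *Maf* were *Gatm* (difference 0.245), *Gm906* (0.367), *Slc5a2* (0.413), *Fam163a* (0.498), and *Car14* (0.503). *Gatm*, which makes the precursor of creatine, averaged 40.6 CPM in c-MafΔTAM and 558.4 CPM in controls. *Slc5a2*, the proximal tubule glucose transporter Sglt2, averaged 24.5 and 321.4 CPM, and *Car14*, a carbonic anhydrase, averaged 5.75 and 64.4 CPM. *Gm906* shares 92.5% of its 36-base sequences with other genes, so that its counts are uncertain. Nearest to *Mafg* were *Bckdha* (0.0751), *Ctsl* (0.0846), *Slc43a2* (0.0924), *Cxcl16* (0.096), and *Pcx* (0.0983). *Pcx*, the pyruvate carboxylase gene, averaged 453.6 and 725.6 CPM, and *Ctsl*, the lysosomal protease cathepsin L, averaged 222.0 and 355.6 CPM. *Bckdha* shares 61.7% of its exonic bases with *B3gnt8*, and *Ctsl* 26.8% with other annotated genes.

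Genes that work beside these factors were taken from lists chosen with earlier results of these data known. Of the other CNC genes, *Nfe2l3* was not called (log2 fold change -0.15, adjusted *P* = 0.798), and *Nfe2*, the blood cell member, held 69 counts over all 8 mice and did not pass the filter. Of 6 tested AP-1 factors, which share DNA letters with Maf, 0 were called, with *Fos* at 0.94 (adjusted *P* = 0.634), *Fosl2* at 0.20, and *Jund* at -0.12. Of 11 genes for Nrf2 degradation, among them the Cul3 ligase subunits and the autophagy receptor *Sqstm1* (-0.39, adjusted *P* = 0.413), 0 were called, with the β-TrCP gene *Fbxw11* at 0.18 and the kinase gene *Gsk3b* at 0.12. Of 8 genes for Nrf1 processing, among them the deglycosylase *Ngly1* (-0.08), the ubiquitin ligase subunit *Fbxw7* (-0.08), and the extraction ATPase *Vcp* (-0.07), 0 were called.

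Antioxidant and detoxification genes known as Nrf2 targets had mostly negative fold changes, and few were called. Of 34 tested, 3 were called lower (*Hmox1*, *Tkt*, and *Nqo1*) and 0 higher, 8.82% against 2.16% of all genes. The median log2 fold change was -0.29, against 0.0027 over all genes, and 27 of 34 (79.4%) had negative values, against 49.5%. Their summed level was 2867 to 3032 CPM in c-MafΔTAM and 3404 to 3701 CPM in controls. The count depended on single mice and on the method, with 0 called without c-MafΔTAM mouse 2, 1 without c-MafΔTAM mouse 3 or control mouse 4, and 13 with *Xist* as a covariate.

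*Hmox1*, the heme oxygenase gene that Bach1 represses and Nrf2 activates, stood at 21.9, 23.3, 30.6, and 29.2 CPM in controls and at 18.9, 11.4, 14.5, and 12.1 CPM in c-MafΔTAM mice. The groups did not overlap (log2 fold change -0.88, SE 0.170, adjusted *P* = 0.0194), and the call was kept in 3 of the 8 fits that left out a mouse and lost with the replicate number as a block (adjusted *P* = 0.109). *Nqo1*, a quinone reductase gene, stood at 33.2, 27.1, 19.7, and 27.2 CPM in controls and at 17.4, 13.2, 12.03, and 19.0 CPM in c-MafΔTAM mice. The lowest control lay close to the highest c-MafΔTAM mouse (-0.80, SE 0.181, adjusted *P* = 0.0483), and the call was kept in 2 of the 8 such fits. *Nqo1* also lost it with upper-quartile factors (adjusted *P* = 0.0649), with at least 10 counts required in every mouse (adjusted *P* = 0.0533), and with quantile normalization (adjusted *P* = 0.0620). *Tkt*, the transketolase of the pentose phosphate pathway, stood at 257.9, 225.3, 224.3, and 205.7 CPM in controls and at 108.7, 143.0, 153.8, and 164.8 CPM in c-MafΔTAM mice. The groups did not overlap (-0.68, SE 0.126, adjusted *P* = 0.0152), and the call was kept in 7 of the 8 fits but not with quantile normalization in limma (adjusted *P* = 0.0584) or the block (adjusted *P* = 0.155). *Srxn1*, *Txnrd1*, *Pgd*, *Taldo1*, *Gstp1*, *Osgin1*, and *Gsta2* also had values that did not overlap, without being called (adjusted *P* from 0.0688 for *Srxn1* to 0.374 for *Gsta2*). The glutathione synthesis genes *Gclc* (-0.61, adjusted *P* = 0.521) and *Gclm* (-0.06, adjusted *P* = 0.825) overlapped. Some targets spread widely within each genotype, such as the efflux pump gene *Abcc3* at 5.44 to 194.7 CPM in c-MafΔTAM and 2.40 to 153.2 CPM in controls.

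Of 11 heme and iron genes, 2 were called lower (*Ftl1*, and *Hmox1*, which the Nrf2 target list also holds) and 0 higher, 18.2% against 2.16% of all genes, with a median of -0.08. *Ftl1*, the ferritin light chain gene, stood at 165.5, 173.1, 166.7, and 163.1 CPM in controls and at 92.6, 117.4, 110.8, and 114.5 CPM in c-MafΔTAM mice. The groups did not overlap and the call was kept without any mouse (-0.62, SE 0.0896, adjusted *P* = 0.00338) but not with the replicate number as a block (adjusted *P* = 0.0557). *Ftl1* shares 62.6% of its 36-base sequences with other genes, mostly *Ftl* pseudogenes, so that its counts are uncertain. The biliverdin reductase gene *Blvrb* (-0.53, adjusted *P* = 0.183), the heavy chain gene *Fth1* (0.18, adjusted *P* = 0.711), the iron exporter gene *Slc40a1* (0.46, adjusted *P* = 0.200), and the transferrin receptor gene *Tfrc* (1.11, adjusted *P* = 0.223) were not called. Under 6 alternatives 1 gene of the list was called higher. *Fth1* was called with *Xist* as a covariate (0.31, adjusted *P* = 0.0345), in the 5 high-*Xist* mice (0.38, adjusted *P* = 0.0314), and with quantile normalization in limma (0.45, adjusted *P* = 0.0276). *Tfrc* was called with edgeR's exact test (1.11, adjusted *P* = 0.0139), with DESeq2 (1.11, adjusted *P* = 0.00498), and without c-MafΔTAM mouse 4 (1.36, adjusted *P* = 0.00627).

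Of 33 proteasome genes, the genes that Nrf1 is known to drive, 0 were called with edgeR's quasi-likelihood test, and 3 of 33, against 14% of all tested genes, had an unadjusted *P* under 0.05, all lower, a share below that background. These were *Psmb4* (-0.31, adjusted *P* = 0.120), *Psmb6* (-0.26, adjusted *P* = 0.239), and *Psmd4* (-0.28, adjusted *P* = 0.286). *Psmb4* was called lower with *Xist* as a covariate (-0.34, adjusted *P* = 0.0168). Values were negative for 28 of 33 genes (84.8%), against 49.5% of all tested genes. The median was -0.11, against 0.0027 over all genes, with a range from -0.31 to 0.14. Their summed level was 1407 to 1478 CPM in c-MafΔTAM and 1416 to 1700 CPM in controls, with overlap.

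**Figure D4:**
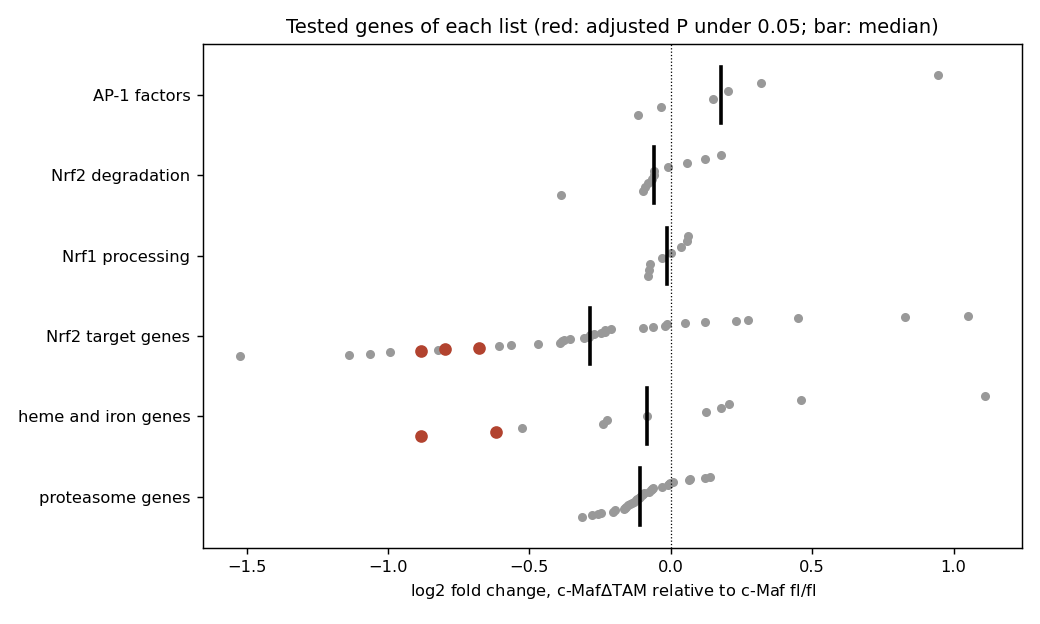
Log2 fold change (horizontal axis, c-MafΔTAM relative to c-Maf fl/fl, n = 4 each) of the tested genes of 6 lists, 1 point per gene, red where the adjusted *P* is under 0.05, with the median of each list as a bar. Called genes lie in the Nrf2 target and heme and iron lists, all below 0, and *Hmox1* appears in both.

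Some markers of kidney cell types differed between the genotypes. Of 8 proximal tubule markers, 2 were called lower, the phosphate transporter gene *Slc34a1* (-1.23, adjusted *P* = 0.000217) and the lactate transporter gene *Slc5a12* (-1.71, adjusted *P* = 0.000349), while the endocytic receptor genes *Lrp2* (-0.17) and *Cubn* (-0.03) were not called. The median of the 8 was -0.33, and *Aqp1* (0.11, 760.7 against 703.6 CPM) and *Ggt1* (0.05, 798.7 against 769.3 CPM) had positive values. *Slc22a8* (-1.07, 209.6 against 439.1 CPM, adjusted *P* = 0.528) had lower values without overlap and was not called. *Slc22a6* (-0.49, 384.9 against 539.6 CPM, adjusted *P* = 0.605) was also not called, with overlap. The summed level of the 8 was 10070 to 13300 CPM in c-MafΔTAM and 14480 to 16630 CPM in controls, and *Slc34a1* (1745 against 4098 CPM) and *Lrp2* (6759 against 7580 CPM) differed most in CPM. The endothelial marker *Kdr* was called lower (-0.37, adjusted *P* = 0.0450), 1 of 5 markers of that type. None of 9 macrophage markers was called, and their sum was 117.6 to 128.1 CPM against 100.2 to 112.7 CPM, without overlap. Fold changes were positive for 7 of the 9. By edgeR's quasi-likelihood test, 3 of the 9 had an unadjusted *P* under 0.05, all higher, against 14% of all tested genes in either direction. None of the markers of thick limb (3), distal nephron and collecting duct (7), podocytes (5), or fibroblasts (6) was called. The part of the tubule and other markers in the results for *Mafg*, *Bach2*, and the Nrf2 targets was not tested.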

How the data were processed

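Whole-kidney RNA of 4 c-MafΔTAM and 4 c-Maf fl/fl mice was sequenced after rRNA depletion with a directional kit, with 2 reads of 36 bases per fragment. The deposited counts are whole reads per gene name, made by the authors with featureCounts version 2.0.1 on exons of Ensembl release 102 (GRCm38), each read of a pair counted separately, strand ignored, and reads that overlap several genes left out. The aligner is not given in the sources used here. The submitters' processing notes name Subread 2.0.2 and edgeR 3.36.0. No normalization had been applied, and 0 columns were left unused. Because strand was ignored, a gene and an overlapping antisense gene cannot be told apart in the counts.

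Counts were filtered by filterByExpr (20149 of 55367 genes kept), scaled by TMM (factors 0.857 to 1.11), and compared with the robust quasi-likelihood test of edgeR 4.0.16 in R 4.3.3, with Benjamini-Hochberg adjusted *P* under 0.05 as the threshold. The study's own route (CLC Genomics Workbench, quantile normalization) starts from reads and was not repeated. Alternatives used limma 3.58.1 and DESeq2 1.42.0. Scripts were tested on simulated data. The 9 genes, the lists, and the tests were chosen with earlier results of these data known. Named were all 9 genes, the 5 nearest profiles of *Maf* and of the other gene with the smallest *P*, and, per list, called genes or the 3 with the smallest *P*. *Gclc*, *Gclm*, *Abcc3*, *Fth1*, *Slc40a1*, *Tfrc*, single marker genes, and the non-overlapping, uncalled Nrf2 targets were named after their values were seen. Some listed genes are not reported here. Promoters are from RefSeq. Compared within each genotype, no library was a copy of another. The labels do not say more of the mice's independence. *P* values of the quasi-likelihood test weigh the difference between the genotypes against the spread among these samples within a genotype.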

Additional observations from a re-analysis of the deposited data

How the results depend on the processing

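The decrease of *Mafg* was called under all 11 other settings and without any mouse. With the replicate number as a block, 129 genes were called in place of 436 (18 higher and 111 lower, in place of 118 and 318), 1 of the 9 genes (*Mafg*) and 1 list gene (*Nqo1*) in place of 4, and *Maf* missed the threshold (-4.28, adjusted *P* = 0.0516). Same-numbered mice did not deviate together (correlations -0.373, 0.152, -0.11, and -0.331). The correlations also went with *Xist*. c-MafΔTAM mouse 1, with low *Xist*, had -0.373 and -0.387 with control mice 1 and 2, and 0.329 and 0.384 with control mice 3 and 4. Whether same-numbered mice shared a litter or batch was not tested. *Maf* also missed it among mice with high *Xist* (-3.87). That setting called 789 genes (322 higher) and 10 list genes, *Xist* as a covariate 1441 (561 higher and 880 lower) and 16 list genes, and DESeq2 843 (284 higher and 559 lower) and 8 list genes. Higher genes numbered 191 without the filter and 218 with edgeR's exact test, and 180 genes had an adjusted *P* under 0.01. *Bach2* was called with *Xist* as a covariate (-0.75), among mice with high *Xist* (-0.92), and with DESeq2 (-0.86). *Maff* turned negative with the block (-0.03), with *Xist* (-0.01), and with quantile normalization (-0.10).

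Leaving out each mouse in turn gave 239 to 452 called genes (51 to 142 higher, 188 to 310 lower), 2 to 3 of the 9 genes, all lower, and 1 to 5 list genes. Fold changes ran from -4.41 to -3.80 for *Maf*, -1.13 to -0.70 for *Bach2*, and -0.26 to 0.19 for *Maff*. The fewest genes were called without c-MafΔTAM mouse 3. Where these settings changed a call, the cause was not tested. The 4 mice per genotype, the unequal *Xist* split, and the low *Maff* and *Bach2* levels limit what could be detected.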
